A study of Mus musculus with 28 samples.

Results

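Transcription factor genes that steer dendritic cell (DC) fate outside the IRF, E protein, ETS and AP-1 families were followed across 28 bulk RNA-seq libraries of mouse spleen. They were picked by name, as 10 of the 24421 genes counted in each library: Zeb1, Zeb2, Nfil3, Bcl6, Bcl11a, Cbfa2t3, Nfix, Myc, Mycl and Mycn. All 10 passed the filter on low counts that left 13159 genes for testing.

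DCs present antigen or make cytokine according to their subset. Type 1 conventional DCs (cDC1) prime CD8 T cells, type 2 conventional DCs (cDC2) prime CD4 T cells, and plasmacytoid DCs (pDC) secrete type I interferon. Background work in the mouse gives these genes opposed roles: the zinc finger repressor ZEB2 favours pDC and cDC2 over cDC1, the bZIP repressor NFIL3 is needed for cDC1 development and represses Zeb2, and ID2 from cDC opposes the E protein TCF4 that maintains pDC. MYC family proteins bind E-boxes with MAX and drive growth, and L-MYC, the product of Mycl, supports the fitness of mature DCs.

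All mice were C57Bl/6, untreated and 6 to 12 weeks old, and every group carried Irf8 flanked by loxP sites (Irf8fl/fl). In pDC_TG (n = 4 libraries) the pDC came from mice that also carried Itgax-cre, a Cre recombinase driven by regulatory sequence of the CD11c gene Itgax. cDC1_WT (CD24+, n = 8), cDC2_WT (CD172a+, n = 8) and pDC_WT (n = 8) came from Irf8fl/fl mice without Cre, which the labels call WT. The study asks what the transcription factor IRF8 does in DCs that have finished differentiating. The labels name no antibody gate for pDC, and Itgax is itself a DC gene, so the Cre acts in cDC of the same mice as well.

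Gene counts per library ran from 17299285 to 30787679. Irf8 averaged 1461 ± 257 depth-scaled read counts (CPM) in pDC_TG, 4024 ± 169 in cDC1_WT, 72.3 ± 14.6 in cDC2_WT and 6145 ± 459 in pDC_WT (SD), which checks the labels. The 9 pDC markers summed to 8620 to 11900 CPM in pDC_TG and 9120 to 12000 CPM in pDC_WT, against at most 125 CPM in any cDC library. Neutrophil markers summed to 199 CPM in pDC_TG replicate 4, to 0.230 to 4.59 CPM in pDC_TG replicates 1 to 3 and to 0.195 to 2.62 CPM in pDC_WT. T cell markers summed to 58.1 to 116 CPM in pDC_TG and 6.16 to 13.7 CPM in pDC_WT, all but a trace of it from Cd5 and Lck. The T cell receptor subunit genes Cd3e, Cd3d and Cd3g averaged under 0.5 CPM in both, and Trat1 was at 0 in every library of both. B cell markers summed to 84.5 to 114 CPM in pDC_TG and 64.8 to 121 CPM in pDC_WT, and monocyte and macrophage markers to 2270 to 3040 and 1960 to 2620 CPM. The monocyte and macrophage sum was 828 to 1130 CPM in cDC2_WT, though 8 of these 9 markers were called higher and 1 lower in cDC2_WT over pDC_WT. The excess of the pDC_WT sum over that of cDC2_WT thus rests on 1 marker. In pDC_TG over pDC_WT 0 of the 9 were called higher and 1 lower. The 5 plasma cell markers summed to 1030 to 1270 CPM in pDC_TG and 207 to 375 CPM in pDC_WT, with Sdc1, the syndecan-1 gene, at 1108 and 51.2 CPM, while Mzb1 (40.1 and 197 CPM) and Derl3 (0.1055 and 1.56 CPM) were called lower in pDC_TG, Jchain (47.2 and 23.1 CPM) was not called and Tnfrsf17 was too low to test. NK cell and erythroid markers summed to at most 2.08 CPM in pDC_TG and 0.748 CPM in pDC_WT. Cell cycle genes summed to 473 to 735 CPM in pDC_TG and 352 to 424 CPM in pDC_WT, and their part in the results below was not tested.

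Levels below are CPM scaled by the trimmed mean of M values (TMM). Each log2 fold change (log2FC) is given with its SE, the standard error in the fit, and a gene is called where edgeR's quasi-likelihood p, adjusted by the Benjamini-Hochberg method over all genes tested, was below 0.05.

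Between 4 and 10 of the 10 regulators were called in each comparison. In pDC_TG over pDC_WT, 3 of the 10 were called higher (Nfil3, Bcl6 and Nfix) and 1 lower (Mycl), while 7.72% of all genes tested were called higher and 7.04% lower. In cDC1_WT over pDC_WT, 7 were higher and 3 lower, beside 30.6% and 30.3% of all genes. In cDC2_WT over pDC_WT, 6 were higher and 3 lower, beside 28.8% and 28.3%. Between the conventional populations, cDC1_WT over cDC2_WT, 1 was higher and 3 lower, beside 22.8% and 23.4%. Set against the conventional cells, pDC_TG had 3 regulators higher and 6 lower than cDC1_WT (27.1% and 26.6% of all genes) and 2 higher and 5 lower than cDC2_WT (24.3% and 23.9%). These 6 comparisons share libraries, so their counts are not independent of each other.

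**Figure D1:**
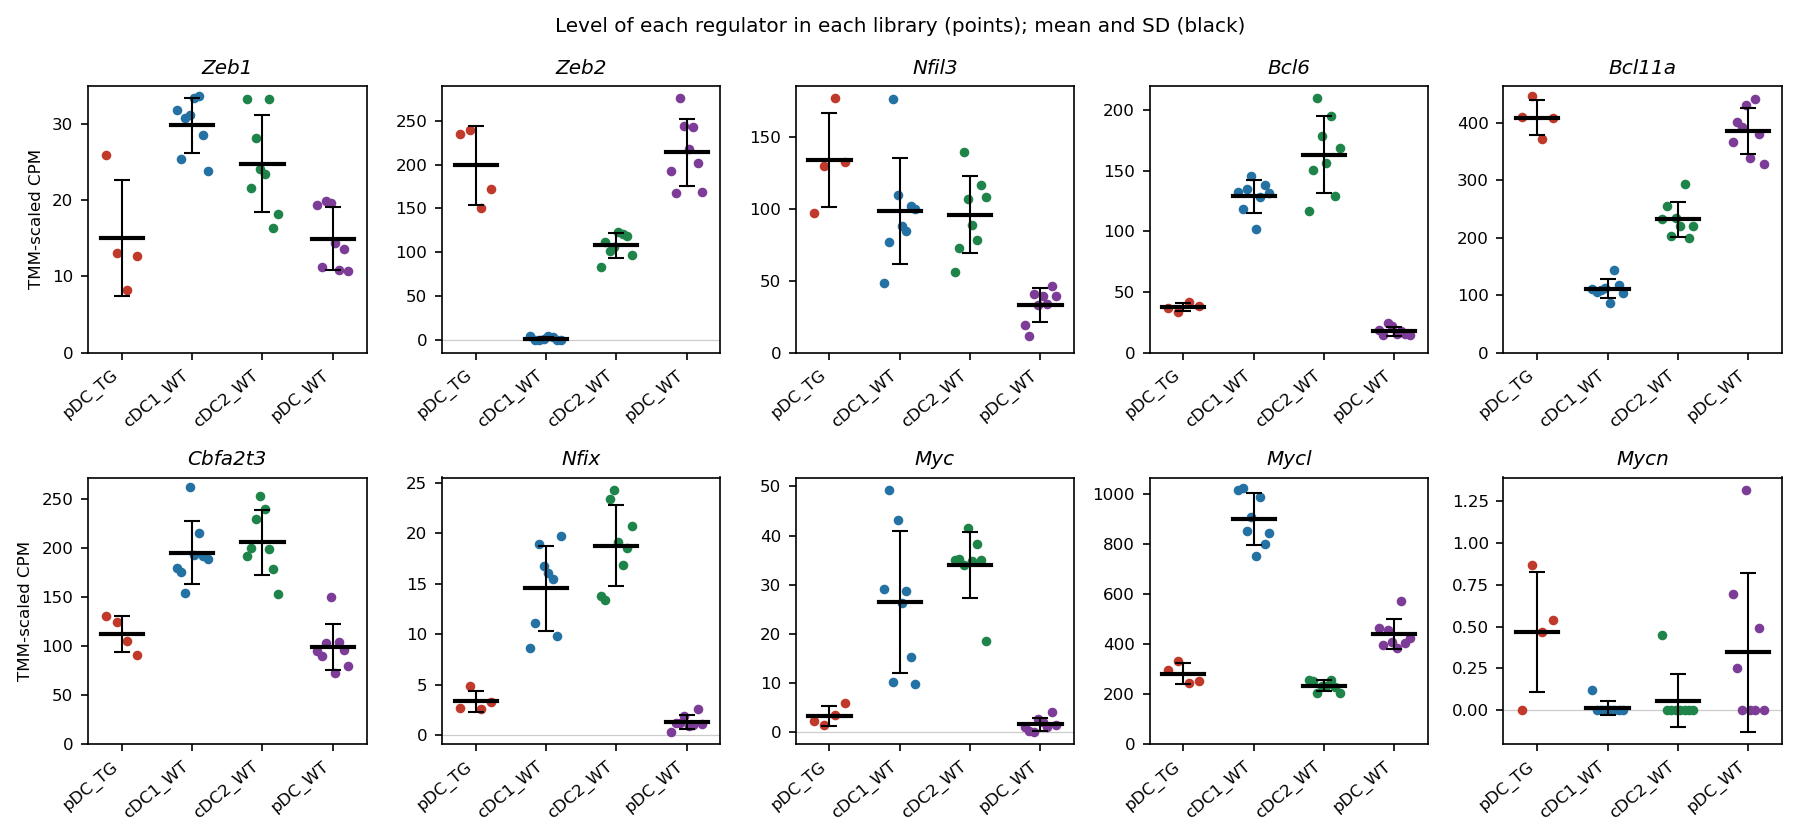
TMM-scaled CPM of each of the 10 regulators (vertical axes, linear, each gene on its own scale) in each library (points) of pDC_TG (n = 4), cDC1_WT, cDC2_WT and pDC_WT (n = 8 each), with the mean and SD in black. Zeb2 lies at or below 5.05 CPM in all 8 cDC1_WT libraries, and Nfil3, Bcl6 and Nfix are higher and Mycl lower in all 4 pDC_TG libraries than in any pDC_WT library.

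The ZEB pair split. Zeb2 (chr2:44983632-45117395), which encodes a repressor that pDC and cDC2 use, was nearly silent in cDC1, and no change was called in pDC_TG. It measured 235, 239, 150 and 172 CPM in the 4 pDC_TG libraries. In cDC1_WT it ran from 0 to 5.05 CPM with a median of 0.769 and no count in 2 of 8 libraries, in cDC2_WT from 83.3 to 123 CPM (median 109), and in pDC_WT from 168 to 276 CPM (median 210). No cDC1_WT library came within reach of any other group, and the pDC_TG libraries fell among those of pDC_WT.

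The fitted log2FC of Zeb2 was -6.84 in cDC1_WT over pDC_WT (SE 0.523, adjusted p = 2.28e-12) and -5.85 in cDC1_WT over cDC2_WT (SE 0.504, adjusted p = 6.61e-11), and the fitted ratio of cDC1_WT to pDC_WT was 0.00874. In pDC_TG over pDC_WT it was -0.10 (SE 0.480, adjusted p = 0.949), with a 95% interval of -1.09 to 0.885 that includes a 2-fold fall. Over the 21 alternatives it ran from -0.204 to 0.0109. The interval rests on a spread shared by all groups. The SD of Zeb2 was 117% of its mean in cDC1_WT, 22.4% in pDC_TG and 17.9% in pDC_WT. cDC2_WT was lower than pDC_WT (-0.99, SE 0.394, adjusted p = 0.0334), and the libraries did not overlap. Over the 25 alternatives the log2FC ran from -1.14 to -0.854, and 17 of them kept the call. The call was lost in the other 8, among them the DESeq2 Wald test (adjusted p = 0.178) and WT replicates 1 to 4 alone (0.133) or 5 to 8 alone (0.129), and without cDC2_WT replicate 1 (0.0589) or 8 (0.0517) or pDC_WT replicate 3 (0.0586) or 6 (0.0535). In pDC_TG over cDC2_WT the libraries did not overlap (0.88, SE 0.465, adjusted p = 0.121), and a fit of those 12 libraries alone gave adjusted p = 3.18e-05. In sorted bulk samples, fewer cells with the transcript and less transcript per cell cannot be told apart.

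Zeb1 (chr18:5591860-5775467), the other ZEB gene, ran the opposite way between the WT populations. It stood at 25.9, 13.1, 8.25 and 12.7 CPM in the pDC_TG libraries. The cDC1_WT libraries held 23.8 to 33.7 CPM (median 31.01), those of cDC2_WT 16.4 to 33.4 (median 23.8) and those of pDC_WT 10.8 to 19.9 (median 13.97). cDC1_WT lay wholly above pDC_WT (log2FC 1.00, SE 0.194, adjusted p = 5.43e-05), and cDC2_WT was higher with overlapping libraries (0.73, SE 0.194, adjusted p = 0.00185), a call lost with WT replicates 1 to 4 alone (adjusted p = 0.0934). pDC_TG replicate 1 stood apart from the other 3, and the log2FC of pDC_TG over pDC_WT was 0.00 (SE 0.236, adjusted p = 1) with it and -0.40 (adjusted p = 0.307) without it. Zeb1 was lower in pDC_TG than in cDC1_WT (-0.99, adjusted p = 0.00106) and cDC2_WT (-0.73, adjusted p = 0.0142), and the second of these calls was lost without pDC_TG replicate 2, 3 or 4 (adjusted p = 0.0501, 0.0924 and 0.054), under scaling by total counts (0.0768) and with WT replicates 5 to 8 alone (0.111).

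Nfil3 (chr13:52967209-52981073), the bZIP repressor gene, had the highest log2FC of the 10 in pDC_TG over pDC_WT. The 4 pDC_TG libraries held 97.1, 129, 177 and 132 CPM. The range was 48.5 to 176 CPM in cDC1_WT (median 93.85), 56.2 to 139 CPM in cDC2_WT (median 97.5) and 11.4 to 46.5 CPM in pDC_WT (median 36.4). The lowest pDC_TG library thus held more than the highest pDC_WT library, and pDC_TG overlapped both cDC groups.

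The rise in pDC_TG over pDC_WT was 4.06-fold (log2FC 2.02, SE 0.280, adjusted p = 4.22e-06). Over the 21 alternatives the log2FC ran from 1.75 to 2.35, and it was 2.03 without replicate 4, the library with neutrophil transcripts. Nfil3 was also higher in cDC1_WT (1.57, SE 0.243, adjusted p = 2.18e-06) and cDC2_WT (1.54, SE 0.243, adjusted p = 3.47e-06) than in pDC_WT. Between pDC_TG and the cDC groups no difference was called: the log2FC was 0.45 over cDC1_WT (95% interval -0.141 to 1.04) and 0.49 over cDC2_WT (-0.102 to 1.07). Scaling by total counts called both (0.74 and 0.68, adjusted p = 0.0254 and 0.0422), as did WT replicates 5 to 8 alone (adjusted p = 0.0149 and 0.0352). Tmem223, Lmo4 and Evl had the patterns most like Nfil3, at root-mean-square distances of 0.591, 0.594 and 0.608 log2 units over the 28 libraries.

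Nfil3 also varied by replicate number within the WT groups. Number 3 was the highest library in cDC1_WT (176 CPM) and cDC2_WT (139 CPM) and numbers 1 and 2 were the lowest in all 3 WT groups, at 48.5 and 77.1 CPM in cDC1_WT, 56.2 and 72.5 CPM in cDC2_WT and 19.2 and 11.4 CPM in pDC_WT. In pDC_WT the highest was number 7 (46.5 CPM), ahead of number 3 (40.9 CPM). Number 3 of pDC_TG was the highest of its group (177 CPM), and number 1 the lowest (97.1 CPM). Over all genes compared, however, same-numbered libraries of pDC_TG and pDC_WT did not deviate together (r -0.0408 to 0.0796). Some stress and immediate early genes moved by number as well. Hspa1a, a heat shock protein gene, was at 1033 CPM in cDC1_WT number 2, 404 CPM in cDC2_WT number 2 and 124 CPM in pDC_WT number 2. In number 3 of the same groups it was at 18.5, 10.3 and 0.263 CPM. The other numbers did not mirror Nfil3 in this way. In number 4 Hspa1a was at 994, 264 and 158 CPM, with Nfil3 at 110, 107 and 33.1 CPM. In number 1 Hspa1a was at 160, 33.6 and 7.90 CPM. Egr1, an immediate early gene, moved less by number. Its deviations correlated at -0.143 (cDC1_WT with cDC2_WT), -0.233 (cDC1_WT with pDC_WT) and 0.585 (cDC2_WT with pDC_WT). Atf3, a stress-induced bZIP gene, peaked in number 3 of cDC1_WT (604 CPM) and cDC2_WT (1473 CPM). The part of these genes in the spread of Nfil3 was not tested. Atf3 rose in pDC_TG with Nfil3, at 83.7 CPM against 21.7 CPM in pDC_WT (log2FC 1.95, adjusted p = 8.73e-06). Of 18 immediate early and dissociation genes tested, 4 were higher and 3 lower in pDC_TG over pDC_WT (median log2FC -0.10), beside 7.72% and 7.04% of all genes.

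**Figure D2:**
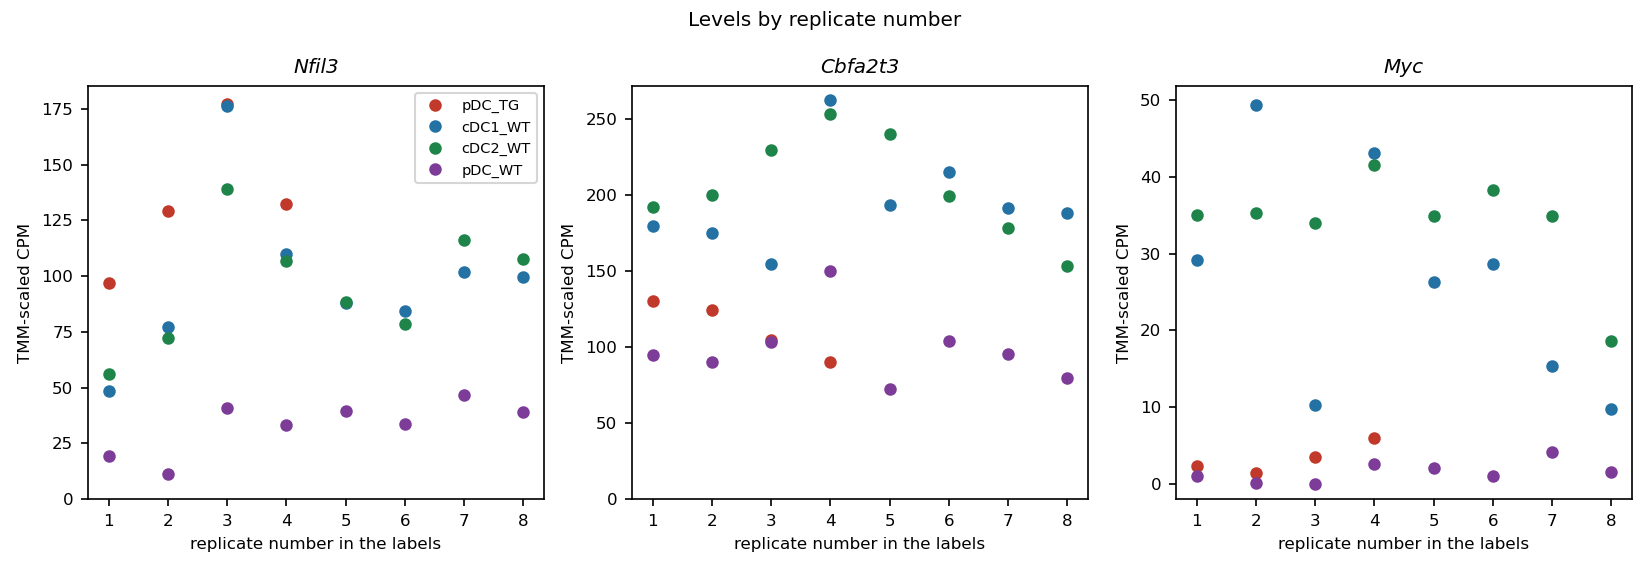
TMM-scaled CPM (vertical axes, linear) of Nfil3, Cbfa2t3 and Myc by the replicate number in the labels (horizontal axes), with 1 point per library coloured by group (pDC_TG has numbers 1 to 4). Nfil3 peaks at number 3 in cDC1_WT (176 CPM) and cDC2_WT (139 CPM), and Cbfa2t3 at number 4 in all 3 WT groups.

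NFIL3 binds the same sites as the PAR bZIP activators and takes part in the circadian clock. Of 16 PAR bZIP and clock genes, 0 were called in pDC_TG over pDC_WT by edgeR, 0 had an unadjusted p below 0.05, and 0 were called in each of the 10 alternatives run on the lists, which did not include DESeq2 (median log2FC -0.13). Between WT populations 1 of the 16 was higher and 9 lower in cDC1_WT over pDC_WT (median log2FC -0.645), beside 30.6% and 30.3% of all genes. In cDC2_WT over pDC_WT 4 were higher and 2 lower (median 0.446), beside 28.8% and 28.3%. In cDC1_WT over cDC2_WT 1 was higher and 10 lower (median -0.872), beside 22.8% and 23.4%. With WT replicates 1 to 4 alone, and 15 of the genes tested, the 9 lower in cDC1_WT over pDC_WT became 4 and the 10 lower in cDC1_WT over cDC2_WT became 6. Tef, a PAR bZIP activator gene, was at 7.52 CPM in cDC1_WT and 35.8 CPM in pDC_WT (log2FC -2.25), and Dbp, another, at 1.48 and 8.88 CPM (-2.57). Bhlhe40, a clock repressor gene, was at 909 CPM in cDC2_WT and 267 CPM in pDC_WT (1.77).

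Bcl6 (chr16:23965052-23988852) encodes a zinc finger repressor best known from germinal centre B cells, and in mice it is also needed for DC development. The pDC_TG libraries had 36.5, 33.3, 41.5 and 38.1 CPM, a spread of 9.14% of the mean. In cDC1_WT Bcl6 ran from 102 to 146 CPM (median 132), in cDC2_WT from 117 to 210 CPM (median 163) and in pDC_WT from 14.4 to 24.5 CPM (median 16.7). All 4 pDC_TG libraries lay in the gap between pDC_WT and the cDC groups.

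Bcl6 rose 2.1-fold in pDC_TG over pDC_WT (log2FC 1.07, SE 0.140, adjusted p = 1.25e-06), and the log2FC was 0.910 to 1.25 over the alternatives, all of them called. It remained far below the conventional cells, with a log2FC of -1.79 (SE 0.155) in pDC_TG over cDC1_WT and -2.13 (SE 0.158) over cDC2_WT. cDC1_WT and cDC2_WT exceeded pDC_WT 7.27-fold and 9.20-fold, and cDC1_WT was slightly lower than cDC2_WT (log2FC -0.34, SE 0.116, adjusted p = 0.0166, lost with WT replicates 1 to 4 alone at 0.174). Spi1, which encodes the myeloid and B cell factor PU.1, had the pattern most like Bcl6 (0.268 log2 units), at 201 CPM in pDC_TG, 539 in cDC1_WT, 711 in cDC2_WT and 96.2 in pDC_WT. Marcks and Slamf7 came next at 0.278 and 0.309.

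Among genes that BCL6 represses in B cells, more were higher than lower in pDC_TG. Of 20 such genes, 8 were higher and 1 lower in pDC_TG over pDC_WT, beside 7.72% and 7.04% of all genes. The median log2FC was 0.60 beside 0.00 over all genes, and without pDC_TG replicate 4 the counts were again 8 and 1 with a median of 0.254. Prdm1, which encodes the plasma cell repressor BLIMP-1, was at 63.9 CPM in pDC_TG and 6.18 CPM in pDC_WT (log2FC 3.37, SE 0.416), beside the higher sum of plasma cell markers given above, whose part in this result was not tested. Nfkb1, a subunit gene of NF-kappa B, was at 533 and 176 CPM (1.60, SE 0.117) and Cd80, a ligand of CD28, at 8.02 and 1.22 CPM (2.70, SE 0.352). Cd44, an adhesion receptor gene, was the 1 that fell, at 263 CPM in pDC_TG and 761 CPM in pDC_WT (-1.53, SE 0.091). In cDC1_WT over pDC_WT 7 were higher and 10 lower (30.6% and 30.3% of all genes), and in cDC2_WT over pDC_WT 13 and 3 (28.8% and 28.3%). Id2, the inhibitor of E proteins, reached 1602 CPM in cDC1_WT and 335 CPM in cDC2_WT, against 6.13 CPM in pDC_WT, and Cdkn1a, a cell cycle inhibitor gene, 71.1 and 88.0 CPM against 5.34 CPM. In pDC_TG, Id2 was at 5.78 CPM (log2FC -0.08, adjusted p = 0.852).

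Promoter sequence was read for the 3 best supported changes in pDC_TG, since IRF8 binds composite sites with ETS factors (core GGAANNGAA) and sites of the interferon-stimulated response element (core GAAANNGAA). RefSeq promoters on GRCm38.p6 were searched for 8 of the 10 genes, with 16 starts. Zeb1 was left out of the search beforehand, and Myc had no promoter in the set used. The 250 bases before each start were searched on both strands for these cores, which can overlap each other, and for CACCTG (the E2-box bound by ZEB factors and E proteins), CACGTG (the E-box bound by MYC-MAX) and the NFIL3 sites TTACGTAA and TTATGTAA. The strands read here are minus for Bcl6 and Nfil3 and plus for Mycl, each line runs 5′ to 3′, and capitals mark matches. The Bcl6 lines cover chr16:23988853-23989102 and chr16:23981284-23981533, the Nfil3 line the 216 bases outside annotated exons at chr13:52981074-52981289, and the Mycl line 30 bases at chr4:122995813-122995842.
Bcl6, outer start: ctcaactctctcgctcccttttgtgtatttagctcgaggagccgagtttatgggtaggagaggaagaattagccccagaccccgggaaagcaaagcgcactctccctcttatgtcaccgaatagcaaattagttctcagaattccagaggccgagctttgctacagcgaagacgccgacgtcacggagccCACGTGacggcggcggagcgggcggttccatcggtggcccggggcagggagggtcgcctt
Bcl6, inner start: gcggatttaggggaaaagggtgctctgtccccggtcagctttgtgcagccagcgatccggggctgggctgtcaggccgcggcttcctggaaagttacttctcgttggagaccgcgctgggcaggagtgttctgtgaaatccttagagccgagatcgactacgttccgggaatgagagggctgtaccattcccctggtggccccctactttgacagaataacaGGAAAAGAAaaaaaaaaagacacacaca
Nfil3: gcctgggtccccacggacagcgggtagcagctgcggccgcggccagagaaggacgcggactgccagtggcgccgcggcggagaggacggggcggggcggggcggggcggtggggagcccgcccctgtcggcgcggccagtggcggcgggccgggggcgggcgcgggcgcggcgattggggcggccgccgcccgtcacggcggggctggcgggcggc
Mycl, around the match: tggggccggcccCACCTGtcgccagcggag

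The outer Bcl6 promoter holds 1 E-box of the MYC-MAX type, and the inner one holds 1 ETS-IRF core, 28 to 20 bases before the start. A match of that core stands in 6.99% of all 32851 promoters and of the E-box in 6.02%. Bcl11a held the only other ETS-IRF core among the 16 starts. The Mycl match is an E2-box, a motif found in 17.2% of all promoters and also before 1 start each of Cbfa2t3 and Nfix. The Nfil3 window, with 81.6% G and C over its 250 bases, held none of the 6 motifs, nor did any of the 4 Zeb2 windows. No window of these genes held the interferon-stimulated core (7.13% of all promoters) or an NFIL3 site (0.113% and 0.819%).

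Bcl11a (chr11:24078056-24174123), a zinc finger factor gene needed for pDC and B cell development in the mouse, separated the 3 WT populations. The pDC_TG libraries held 410, 446, 372 and 409 CPM. Ranges were 85.8 to 144 CPM in cDC1_WT (median 110), 199 to 293 CPM in cDC2_WT (median 227) and 329 to 441 CPM in pDC_WT (median 387). The 3 WT ranges did not touch, and pDC_TG lay within and just above that of pDC_WT.

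The log2FC of Bcl11a in pDC_TG over pDC_WT was 0.09 (SE 0.106, adjusted p = 0.705), with a 95% interval of -0.132 to 0.305. It fell by 1.80 in cDC1_WT over pDC_WT (SE 0.0895, adjusted p = 3.54e-17), by 0.73 in cDC2_WT over pDC_WT (SE 0.0872, adjusted p = 1.84e-08) and by 1.07 in cDC1_WT over cDC2_WT (SE 0.0879). Fth1, a ferritin subunit gene, Ptpn1 and Fam63b had the patterns most like it, at 0.194, 0.231 and 0.231 log2 units. BCL11A works with the NuRD chromatin remodelling complex. Of 13 NuRD subunit genes, 7 were higher and 0 lower in pDC_TG over pDC_WT by edgeR, beside 7.72% and 7.04% of all genes (also 7 and 0 at an unadjusted p below 0.05, median log2FC 0.29). The count of 7 was 6 without pDC_TG replicate 4, 5 without replicate 1, 4 without replicate 3 and 3 without replicate 2. Rbbp7, a histone-binding subunit gene, was at 213 CPM in pDC_TG and 161 CPM in pDC_WT (log2FC 0.41, SE 0.0804), and Chd3, a remodelling ATPase gene, at 12.5 and 4.40 CPM (1.498, SE 0.333). Hdac2 (0.38) and Mta1 (0.59) rose as well. In cDC1_WT over pDC_WT, 5 of the 13 were higher and 2 lower (30.6% and 30.3% of all genes). In cDC2_WT over pDC_WT the counts were 8 and 3 (28.8% and 28.3%). Rbbp7 was at 449 CPM in cDC1_WT and 317 CPM in cDC2_WT.

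A list of 12 genes on which BCL11A, ZEB2 or NFIL3 act in mouse DCs had 3 higher and 4 lower in pDC_TG over pDC_WT, beside 7.72% and 7.04% of all genes. Besides Irf8, whose loss is part of the design, these included Spi1 (log2FC 1.07, SE 0.0773), the cytokine receptor gene Flt3 (460 CPM in pDC_TG and 276 CPM in pDC_WT, 0.74, SE 0.0987) and Cebpb, a bZIP factor gene (18.6 and 73.5 CPM, -1.98, SE 0.334). Tcf4 was at 731 CPM in pDC_TG and 718 CPM in pDC_WT (0.03, adjusted p = 0.962). In cDC1_WT over pDC_WT all 12 were called, 4 higher and 8 lower, beside 30.6% and 30.3% of all genes.

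Cbfa2t3 (chr8:122625141-122699109) encodes the ETO-family co-repressor ETO2, which in mouse progenitors acts on the choice between pDC and cDC. Its levels were 130, 124, 105 and 90.4 CPM in pDC_TG. They ran from 154 to 262 CPM in cDC1_WT (median 190), from 153 to 253 CPM in cDC2_WT (median 199) and from 72.3 to 150 CPM in pDC_WT (median 95.1). Both cDC groups lay above both pDC groups with no overlap.

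Against pDC_WT, Cbfa2t3 was higher in cDC1_WT (log2FC 0.98, SE 0.126, adjusted p = 6.43e-08) and cDC2_WT (1.06, SE 0.126, adjusted p = 1.74e-08), and it was at 0.19 in pDC_TG (SE 0.152, adjusted p = 0.506, 95% interval -0.125 to 0.502). It was lower in pDC_TG than in cDC1_WT (-0.79, adjusted p = 8.95e-05) and cDC2_WT (-0.87, adjusted p = 3.39e-05). Number 4 was the highest library in each WT group, at 262, 253 and 150 CPM, and the lowest in pDC_TG. Was, Gpsm3 and Akna were most like it, at 0.210, 0.216 and 0.232 log2 units. Of 15 co-repressor genes that partner BCL6 or the ETO family, 1 was lower and 0 higher in pDC_TG over pDC_WT by edgeR (1 and 2 at an unadjusted p below 0.05): Tbl1xr1, an NCoR complex subunit gene, at 136 CPM against 191 CPM (log2FC -0.49, SE 0.116, adjusted p = 0.00306). Ctbp2, a co-repressor gene that ZEB proteins also use, was at 21.99 CPM in cDC1_WT and 13.1 CPM in cDC2_WT, against 3.49 CPM in pDC_WT (2.66 and 1.91).

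Nfix (chr8:84699876-84800344), a nuclear factor I gene with a role in blood stem cells of the mouse, was scarce in pDC. The pDC_TG libraries held 2.69, 4.84, 2.60 and 3.25 CPM, from 70 to 128 reads. Values ran from 8.61 to 19.7 CPM in cDC1_WT (median 15.7), from 13.4 to 24.3 CPM in cDC2_WT (median 18.9) and from 0.322 to 2.59 CPM in pDC_WT (median 1.13, 6 to 84 reads). The lowest pDC_TG library and the highest pDC_WT library were 2.60 and 2.59 CPM, so the groups just missed each other.

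Nfix was 2.60-fold higher in pDC_TG than in pDC_WT (log2FC 1.38, SE 0.313, adjusted p = 0.00215), and fitting the pDC groups by themselves ended the call (1.39, adjusted p = 0.104). It was 11.3-fold higher in cDC1_WT (3.50, SE 0.284) and 14.6-fold higher in cDC2_WT (3.87, SE 0.289) than in pDC_WT, and lower in pDC_TG than in either cDC group (-2.12 and -2.49). Of the other NFI genes, Nfic and Nfia were tested and neither was called in pDC_TG over pDC_WT by edgeR (1 was lower at an unadjusted p below 0.05), while Nfic was lower in cDC1_WT (17.6 CPM) and cDC2_WT (11.7 CPM) than in pDC_WT (22.6 CPM, log2FC -0.36 and -0.95). Rasgrp4, Marcks and Gsto1 had the patterns most like Nfix, at 0.344, 0.438 and 0.446 log2 units, and Marcks was thus named for both Nfix and Bcl6.

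**Figure D3:**
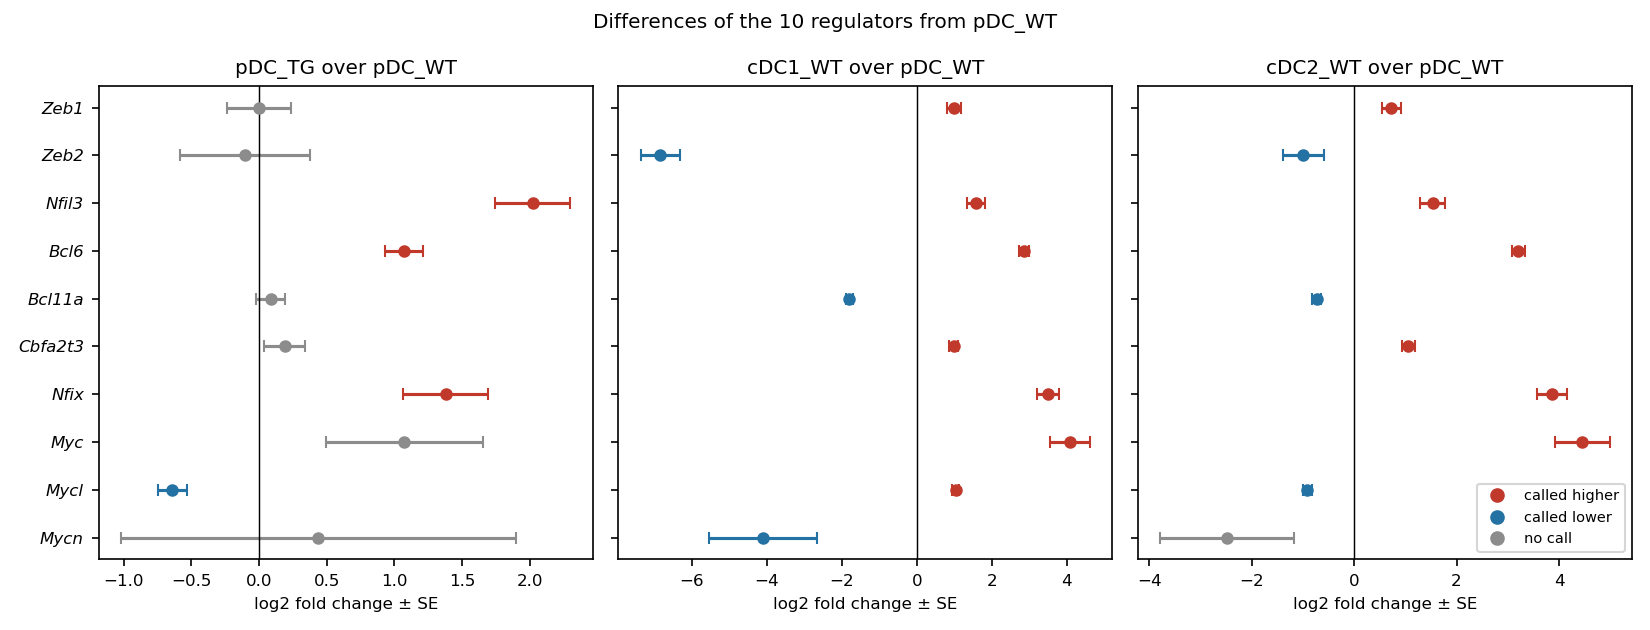
Log2FC with SE (horizontal axes, a different scale in each panel) of the 10 regulators in pDC_TG, cDC1_WT and cDC2_WT, each over pDC_WT, from the fit of all 28 libraries, with called genes in red (higher) and blue (lower) and the rest in grey. Nfil3 is at 2.02, 1.57 and 1.54 in the 3 panels, Mycl at -0.64, 1.03 and -0.91, and the bars of Mycn rest on few reads.

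The MYC family divided by member, and each member had a different order of groups. Mycl (chr4:122995652-123002485) was abundant everywhere and highest in cDC1. It measured 296, 333, 245 and 251 CPM in pDC_TG. In cDC1_WT it ran from 755 to 1026 CPM (median 883), in cDC2_WT from 203 to 257 CPM (median 233) and in pDC_WT from 384 to 571 CPM (median 416). All pDC_TG libraries lay below all pDC_WT libraries, and 2 of them, replicates 3 and 4, within the range of cDC2_WT.

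Mycl fell by 0.64 on the log2 scale in pDC_TG over pDC_WT (SE 0.107, adjusted p = 4.98e-05), to 64.1% of the pDC_WT level by the fit, and over the alternatives the log2FC was -0.73 to -0.58. It was higher in cDC1_WT than in pDC_WT (1.03, SE 0.0854, adjusted p = 6.27e-12) and cDC2_WT (1.95, SE 0.0876, adjusted p = 9.44e-18), and lower in cDC2_WT than in pDC_WT (-0.91, SE 0.0853). The small excess of pDC_TG over cDC2_WT (0.27, SE 0.103, adjusted p = 0.0312) was lost in 6 alternatives: with WT replicates 1 to 4 alone (adjusted p = 0.0789) or 5 to 8 alone (0.0878), and without pDC_TG replicate 1 (0.0862) or 2 (0.197) or cDC2_WT replicate 3 (0.057) or 8 (0.0562). The 3 genes most like Mycl were Mlec (0.223 log2 units), Ppm1m (0.263) and Rpn1 (0.281), and Mlec and Rpn1 encode proteins of N-glycosylation in the endoplasmic reticulum.

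Myc (chr15:61985391-61990374) itself was higher in conventional cells than in pDC. The pDC_TG libraries held 2.30, 1.36, 3.43 and 5.94 CPM. In cDC1_WT it spread from 9.75 to 49.4 CPM (median 27.5), in cDC2_WT from 18.6 to 41.5 CPM (median 35.0) and in pDC_WT from 0 to 4.13 CPM (median 1.24, with 1 library at 0). Every cDC library exceeded every pDC library, and replicate 4 of pDC_TG, which holds the neutrophil transcripts, was the highest of the pDC libraries.

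Myc was 17-fold higher in cDC1_WT (log2FC 4.09, SE 0.528, adjusted p = 9.95e-08) and 21.9-fold higher in cDC2_WT (4.45, SE 0.535, adjusted p = 3.02e-08) than in pDC_WT. In pDC_TG over pDC_WT it was not called (1.07, SE 0.579, adjusted p = 0.251, 95% interval -0.121 to 2.27), and the log2FC was 0.61 without pDC_TG replicate 4. Within cDC1_WT, Myc was highest in numbers 2 and 4 (49.4 and 43.1 CPM), where Hspa1a was also highest (1033 and 994 CPM), and lowest in numbers 8, 3 and 7 (9.75, 10.2 and 15.3 CPM), where Hspa1a was lowest (31.3, 18.5 and 29.6 CPM). In cDC2_WT, 7 of 8 libraries held 34.0 to 41.5 CPM whatever their Hspa1a. Egr1, an immediate early gene, had the pattern most like Myc (0.731 log2 units), ahead of Amz1 (0.737) and Kit, the stem cell factor receptor gene (0.764). Of the 18 immediate early and dissociation genes, 12 were higher and 1 lower in cDC1_WT over pDC_WT (median log2FC 1.58), beside 30.6% and 30.3% of all genes. In cDC2_WT over pDC_WT 13 were higher and 1 lower (median 1.78), beside 28.8% and 28.3%. The part of these genes in the level of Myc was not tested.

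Mycn (chr12:12936093-12941914) was near the floor. There were 0, 23, 14 and 17 reads in the pDC_TG libraries, 3 reads in 1 cDC1_WT library, 12 reads in 1 cDC2_WT library and 72 reads over 4 of 8 pDC_WT libraries. Summed over a group, pDC_TG and pDC_WT had 54 and 72 reads, a ratio of depth-scaled levels of 1.36 with a 95% counting interval of 0.935 to 1.96. The ratio of cDC1_WT to pDC_WT was 0.0452 (0.00911 to 0.137) and that of cDC2_WT to pDC_WT 0.179 (0.0884 to 0.332). These intervals cover counting error only, and the calls in the fits with cDC1_WT (pDC_TG over cDC1_WT higher, adjusted p = 0.0163, and cDC1_WT over pDC_WT lower, 0.016) were lost in the DESeq2 Wald test (0.117 and 0.0757) and with WT replicates 1 to 4 alone (0.111 and 0.0895).

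The partners of MYC followed no single direction in pDC_TG. Of 10 MYC-MAX network genes tested, 2 were higher and 1 lower over pDC_WT, beside 7.72% and 7.04% of all genes. These counts were 1 and 2 without pDC_TG replicate 2, 1 and 1 without replicate 4, 1 and 1 with WT replicates 1 to 4 alone and 0 and 2 with WT replicates 5 to 8 alone. Mxd1, a MAX-binding antagonist of MYC, was at 29.3 CPM in pDC_TG and 68.7 CPM in pDC_WT (log2FC -1.23, SE 0.199, adjusted p = 3.6e-05), and at 210 CPM in cDC1_WT and 200 CPM in cDC2_WT. Mxi1, another antagonist, was at 35.8 and 21.6 CPM (0.73, SE 0.212), and Mxd3 at 1.40 and 0.290 CPM (2.26, SE 0.649). Max, the shared partner, was higher in cDC1_WT than in cDC2_WT (84.7 and 61.5 CPM, 0.46). The 10 genes had median log2FC between -0.08 and 0.10 in the 6 comparisons.

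Nucleolar and growth genes that MYC activates were raised in cDC1 more broadly than in cDC2. Of 30 tested, 26 were higher and 1 lower in cDC1_WT over pDC_WT (median log2FC 0.62 beside -0.03 over all genes), beside 30.6% and 30.3% of all genes. In cDC2_WT over pDC_WT the counts were 13 and 5 (median 0.18), beside 28.8% and 28.3%. In cDC1_WT over cDC2_WT, 21 were higher and 1 lower (median 0.43), beside 22.8% and 23.4% of all genes. Myc was not called between these groups (log2FC -0.36, adjusted p = 0.553) and Mycl was 3.85-fold higher in cDC1_WT. Under scaling by total counts the counts became 21 and 1 in cDC1_WT over pDC_WT, 16 and 1 in cDC1_WT over cDC2_WT, and 8 and 9 in cDC2_WT over pDC_WT, so the direction in cDC2_WT depended on the scaling. With WT replicates 1 to 4 alone they were 7 and 4 in cDC2_WT over pDC_WT and 12 and 1 in cDC1_WT over cDC2_WT. Pes1, a ribosome biogenesis gene, was at 147 CPM in cDC1_WT and 93.2 CPM in cDC2_WT, against 64.8 CPM in pDC_WT (1.18 and 0.52), and the glycolysis gene Ldha at 1631 CPM in cDC1_WT, against 677 CPM in pDC_WT (1.27). Tfrc, the transferrin receptor gene, was the 1 gene lower, at 20.96 CPM in cDC1_WT and 86.8 CPM in pDC_WT (-2.05). All 25 cell cycle genes were higher in both cDC groups over pDC_WT.

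In pDC_TG over pDC_WT, 4 of these 30 genes were higher and 2 lower (median log2FC -0.02), beside 7.72% and 7.04% of all genes. Nop16 (41.4 and 27.5 CPM, log2FC 0.59, SE 0.109) and Rrp9 (33.9 and 22.3 CPM, 0.60, SE 0.140), both of ribosome assembly, were among the rises, while Fbl, the fibrillarin gene (90.8 and 133 CPM, -0.55, SE 0.0935), and Tfrc (56.2 and 86.8 CPM, -0.63, SE 0.163) fell. Of 25 cell cycle genes, 17 were higher in pDC_TG and none lower, beside 7.72% and 7.04% of all genes. However, 8 were higher and 1 lower without replicate 4, 10 were higher with WT replicates 1 to 4 alone, and 9 were higher when the pDC groups were fitted by themselves.

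**Figure D4:**
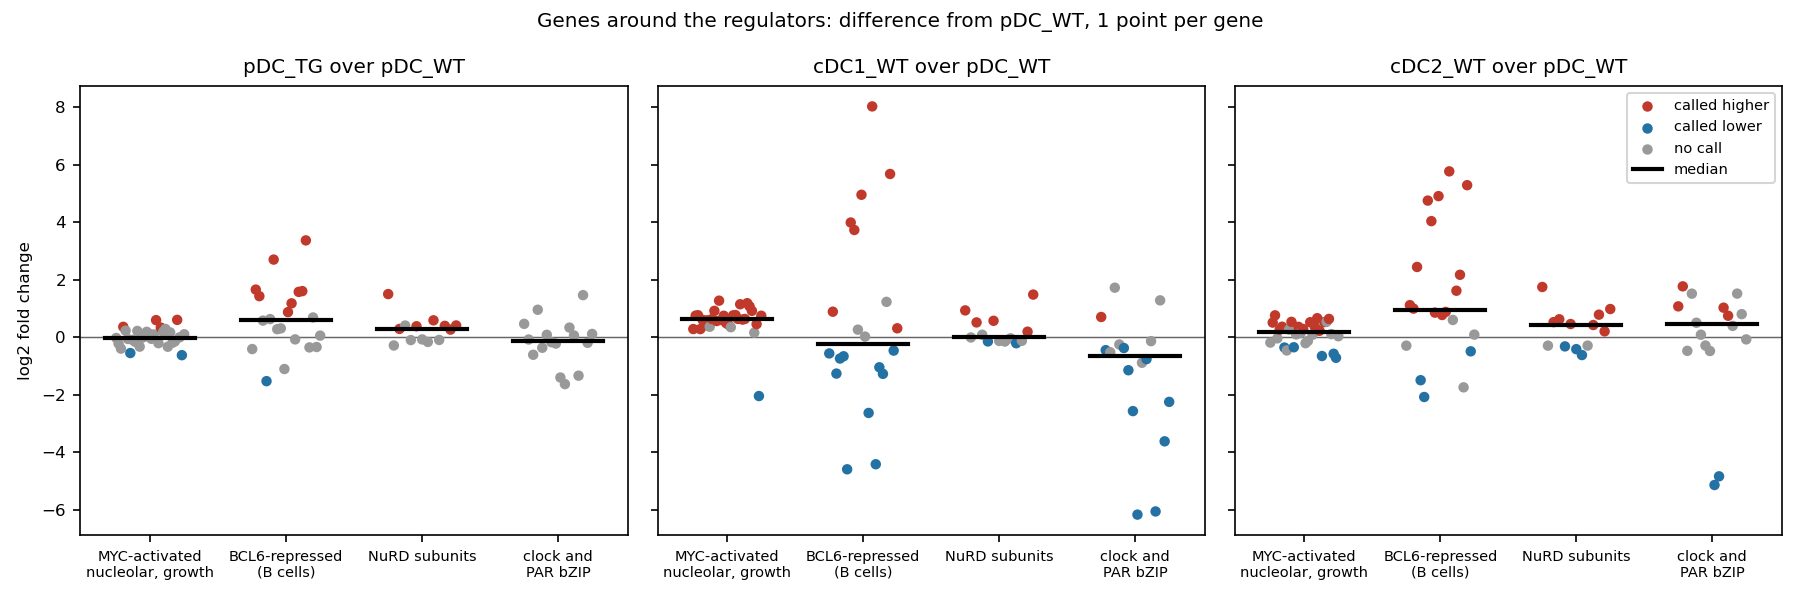
Log2FC (vertical axis, shared) of single genes (points) in 4 lists around the regulators, in pDC_TG, cDC1_WT and cDC2_WT, each over pDC_WT, with the median as a black line and called genes in red (higher) or blue (lower). The MYC-activated nucleolar and growth genes sit near 0 in pDC_TG (median -0.02) and mostly above it in cDC1_WT (median 0.62), and genes that BCL6 represses in B cells have a median of 0.60 in pDC_TG.

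Levels of different regulators can be set side by side only per length, here as CPM per kb of annotated exon sequence. In pDC_TG, Mycl (69.7 ± 10.3 CPM per kb) and Nfil3 (66.1 ± 16.2) led and overlapped, followed by Bcl11a (31.1 ± 2.32), Cbfa2t3 (13.4 ± 2.19) and Zeb2 (9.98 ± 2.24), of which the last pair overlapped. In cDC1_WT, Mycl (223 ± 25.5) stood alone above Nfil3 (48.5 ± 18.2), Cbfa2t3 (23.3 ± 3.85) and Bcl6 (19.3 ± 2.03), and Zeb2 had rank 9 of 10 at 0.0910 ± 0.107. cDC2_WT had Mycl (57.8 ± 5.40) and Nfil3 (47.2 ± 13.2) overlapping at the top, then Cbfa2t3 (24.6 ± 3.98), Bcl6 (24.4 ± 4.71) and Bcl11a (17.6 ± 2.30), with overlap between each pair of neighbours. In pDC_WT the order was Mycl (109 ± 15.0), Bcl11a (29.2 ± 3.04) and then Nfil3 (16.3 ± 5.84), Cbfa2t3 (11.8 ± 2.80) and Zeb2 (10.7 ± 1.92), the last 3 overlapping with their neighbours. Nfil3 thus had rank 2 in pDC_TG and rank 3 in pDC_WT. Per kb of the longest transcript instead, Nfil3 had rank 3 in pDC_TG behind Bcl11a (66.1 and 68.3 CPM per kb) and rank 4 in pDC_WT behind Zeb2 (16.3 and 23.5). The exons of Myc, Mycl, Mycn and Nfil3 overlap no other annotated gene, and those of the other 6 do over 0.313% (Bcl6) to 3.52% (Cbfa2t3) of their bases, mostly on the opposite strand, which these unstranded reads cannot separate.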

How the data were processed

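Whole-number read counts per gene symbol were deposited by the authors for 28 libraries, not normalized. Per the labels' protocols, 4 ng of total RNA was amplified with SMART-Seq v4, which marks no strand, and sequenced as single 75 bp reads on 2 flow cells. The labels do not say which of them a library was run on. FastQC 0.11.4, Trimmomatic 0.35, TopHat2 2.1.0, SAMtools 0.1.18 and build mm10 are named per the submitters' processing notes, while for the counting tool and annotation nothing is given in the sources used here. Summary lines that name no gene were left out.

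From these counts, edgeR 4.0.16 (R 4.3.3) with TMM scaling, filterByExpr by group (minimum count 10, minimum total 15) and one robust quasi-likelihood fit (28 libraries) gave 6 two-sided comparisons, adjusted over 13159 genes. The fit was tested on simulated data. Alternatives were DESeq2 1.42.0, other scalings, no filter, the 2 groups alone, subsets of WT replicates, a sex term, a replicate block and leaving out libraries. Fits leaving out 1 library keep at least 3 in each group.

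The members, lists and comparisons were chosen with earlier results of these data known. Named genes are all members, up to 4 called genes of a list with the smallest adjusted p in pDC_TG over pDC_WT and up to 2 between WT populations, and the 3 genes closest to a member whose group means differ at least 2-fold (12238 genes searched). Other genes given with values, such as Hspa1a and Tcf4, were chosen after their values were seen. Same-numbered libraries deviated together over 8287 genes in 8 of 8 pairs of cDC2_WT with pDC_WT (r 0.133 to 0.373) and of cDC1_WT with cDC2_WT (0.121 to 0.315), in 7 of 8 of cDC1_WT with pDC_WT (0.0963 to 0.310) and in none of 4 of pDC_TG with pDC_WT (-0.0408 to 0.0796). The labels number mice, and whether same-numbered WT libraries come from the same mouse is not stated. The p-values treat every library as independent and take no account of such a pairing. Xist and Ddx3y placed both sexes in every group. All pairs of libraries within groups differed by more than sampling noise (lowest chi-square per degree of freedom 33.6). Exon lengths and positions are from GENCODE vM21 on GRCm38, which is mm10.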

Additional observations from a re-analysis of the deposited data

Results flagged for a closer look

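Of 40 groups of values (each regulator in each group), 5 held a library far from its neighbours, where chance flags about 1 in 20 groups if the values are normally distributed. Cbfa2t3 was at 149.9 CPM in pDC_WT replicate 4, against 103.9 CPM in the next library, and replicate 4 was the highest in cDC1_WT and cDC2_WT as well. Mycl was at 571.1 CPM in pDC_WT replicate 6, against 466.5 CPM in the next. Myc was at 18.56 CPM in cDC2_WT replicate 8, against 34.02 CPM in the next lowest, and replicate 8 was the lowest in cDC1_WT too. Mycn was at 0.1201 CPM in cDC1_WT replicate 1 and at 0.4501 CPM in cDC2_WT replicate 1, while the other 7 libraries of each group held no read. Any read in the remaining library sets such a flag, so the Mycn flags cannot be set against that rate. Leaving out cDC2_WT replicate 1 brought Mycn past the threshold in pDC_TG over cDC2_WT (adjusted p = 0.00401) and in cDC2_WT over pDC_WT (0.00348).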

How the results depend on the processing

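Over the 60 log2FC of the 10 regulators, 1376 alternative values were computed. Of these, 1339 kept their status as called or not called, 27 lost the call and 10 gained it. A change of sign with a call in either fit occurred in 0. Log2FC without a call could change sign and count as kept. Zeb1 in pDC_TG over pDC_WT ran from -0.40 to 0.27, and Mycn in cDC1_WT over cDC2_WT from -3.665 to 2.032. The number of regulators called higher in pDC_TG over cDC2_WT, 2 in the fit of all libraries, was 1 with WT replicates 1 to 4 alone and ran from 1 to 3 over the fits without 1 library; Mycl lost its call in those that gave 1, and Mycn gained one without cDC2_WT replicate 1. The other 11 counts stayed within 1.5 times their value. Under scaling by total counts the median log2FC of all genes was -0.278 to 0.297, against -0.029 to 0.0108 under TMM, so its values are relative to that shift. With the replicate number as a block, 3 regulators were higher and 1 lower in pDC_TG over pDC_WT, as without it, and the pairing changed no call between WT groups; the block gave Nfil3 a call in pDC_TG over cDC1_WT (log2FC 0.64, adjusted p = 0.00419) and over cDC2_WT (0.66, 0.00397), where the numbers do not pair the libraries. The flow cell was not tested, and depth limits Mycn, with 54 reads in pDC_TG and 72 in pDC_WT. List counts under other settings were added after seeing the data; the cause of each change was not tested.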
